A study of Homo sapiens with 7 samples.

Results

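The 8 genes described here code for the enzymes that write, maintain and remove methylation of cytosine in DNA: DNMT1, DNMT3A, DNMT3B, UHRF1, TET1, TET2, TET3 and TDG. They were chosen by name out of the 23710 genes in the table, and all 8 had a mean of at least 50 normalized counts, the filter on low values that left 12578 genes. The data came from SNU398, an established human line of hepatocellular carcinoma in which the zinc finger transcription factor SALL4 is active. It was grown in serum-containing medium, and RNA was sequenced from 1 library for each of 4 peptides, given at 30 µM for 8 hours. PEN is penetratin, a peptide that carries cargo into cells, given alone. PEN-WT, as far as the study is known, couples penetratin to the stretch of SALL4 that contacts RBBP4, a subunit of the NuRD corepressor complex, PEN-MUT to a mutated stretch that served as control, and PEN-FFW to an engineered stretch. None of these 4 libraries came from cells without peptide, so penetratin was common to all of them. No comparison has a replicate, so none was tested, and ± below is the standard error of read counting alone.

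DNA methylation is copied at each cell division. DNMT1 methylates the new strand behind the replication fork, and UHRF1 brings it there by recognising CpG sites methylated on the old strand only. DNMT3A and DNMT3B place methyl groups on CpG sites that had none. TET1, TET2 and TET3 use iron and 2-oxoglutarate to oxidise the methyl group, and the glycosylase TDG cuts out the more oxidised bases, after which base excision repair puts back an unmodified cytosine. NuRD, the complex that SALL4 recruits through RBBP4, holds deacetylases and proteins of the methyl-CpG-binding family.

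Depth in genes above the floor of the table ran from 27347377 reads (PEN-FFW) to 40717633 reads (PEN-WT). The level of the deposited PEN-FFW values was lower throughout, with the median tested gene at -0.27 on the log2 scale from PEN, -0.30 from PEN-MUT and -0.30 from PEN-WT. Each difference below is one in log2(normalized count + 10) between libraries, less that of the median tested gene. In cell cultures measured as bulk, fewer cells making a transcript and less transcript per cell cannot be told apart. Out of 23710 genes in the table, 7939 (PEN-FFW) to 8480 (PEN-MUT) were at the floor in a single library. Of 12 hepatocyte and hepatocarcinoma markers 7 were at the floor in every library, among them HNF4A, KRT8 and KRT18. Only ALB (83.1 to 157 normalized counts) and GPC3 (998 to 1281) passed the filter. The labelled hepatocyte lineage was thus barely visible in its defining markers. Of the other cell types, 3 of 3 endothelial and 3 of 4 leukocyte markers were at the floor, whereas PTPRC had 298 to 373 normalized counts. The 4 fibroblast genes were all above the filter but at very unlike levels. COL1A1 had 127 to 221 normalized counts, DCN 1355 to 2153, LUM 10807 to 17486 and COL3A1 72895 to 79779. The part of such transcripts in the members' values was not tested. SALL4 itself had 1168 normalized counts with PEN-FFW, 1291 with PEN-WT, 1359 with PEN-MUT and 1665 with PEN alone, and RBBP4 had 5241, 6875, 7082 and 6773 in that order. Relative to the median gene, SALL4 differed from PEN by -0.24 ± 0.05 with PEN-FFW, -0.40 ± 0.05 with PEN-WT and -0.31 ± 0.05 with PEN-MUT. On that scale SALL4 was lowest with PEN-WT, not PEN-FFW. RBBP4 differed from PEN by -0.10 ± 0.02, -0.01 ± 0.02 and 0.04 ± 0.02 in the same order.

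All 8 enzymes were transcribed in every library, and the maintenance pair was far above the rest. Per kilobase of the canonical transcript, DNMT1 had a median over the 4 libraries of 2103 normalized counts (1871 to 2153) and UHRF1 1885 (1610 to 1986), the former higher than 91.1% of tested genes. Their ranges over the libraries overlapped, yet within each of the 4 libraries DNMT1 was the higher, with 1871 against 1610 in PEN-FFW, 2153 against 1986 in PEN-WT, 2080 against 1918 in PEN-MUT and 2125 against 1853 in PEN. TDG followed with 939 normalized counts per kilobase (734 to 970) and DNMT3B with 605 (571 to 677), each with a range clear of its neighbours. TET2 (280, from 271 to 312) and DNMT3A (272, from 260 to 296) overlapped and stood below the median tested gene, which had 335. TET1 had 246 (225 to 251) and TET3 162 (143 to 176), the lowest, with 31.0% of tested genes below it. These levels rest on GENCODE transcript lengths, and the isoforms present in SNU398 were not measured.

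The maintenance genes stayed within 0.15 of the median gene in all 6 pairs of libraries. DNMT1 lies on chromosome 19 (10244018 to 10341962, minus strand, GRCh37) and has 41 exons in its canonical transcript. It had 9868 normalized counts with PEN-FFW, 11356 with PEN-WT, 10970 with PEN-MUT and 11210 with PEN alone. The PEN-FFW value was the lowest of the 4, by less than the general shift of that library. Set against PEN, DNMT1 stood at -0.05 ± 0.02 with the mutated peptide, -0.01 ± 0.02 with the native one and 0.09 ± 0.02 with PEN-FFW. UHRF1, on the same chromosome (4903092 to 4962165, plus strand), had 6275 normalized counts with PEN-FFW, 7741 with PEN-WT, 7473 with PEN-MUT and 7222 with PEN alone. UHRF1 then stood 0.07 ± 0.02 above PEN with both PEN-FFW and PEN-WT and 0.03 ± 0.02 above it with PEN-MUT. Over the 4 libraries its values spanned 0.07 in log2 units relative to the median gene, and 96.8% of tested genes had a span as large or larger. DNMT1 spanned 0.14, a width reached by 81.0% of tested genes.

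The de novo enzymes were slightly above the median gene in all 3 comparisons with PEN. DNMT3A (chromosome 2, 25450724 to 25565459, minus strand) had 2506 normalized counts with PEN-FFW, 2788 with PEN-WT, 2613 with PEN-MUT and 2448 with PEN alone. PEN was the lowest and PEN-WT the highest as deposited. Its difference from PEN was 0.07 ± 0.04 with PEN-MUT, 0.16 ± 0.04 with PEN-WT and 0.30 ± 0.04 with PEN-FFW, where 18.0% of tested genes were as high or higher. DNMT3B (chromosome 20, 31350191 to 31397165, plus strand) had 2476 normalized counts with PEN-FFW, 2936 with PEN-WT, 2755 with PEN-MUT and 2491 with PEN alone. PEN-FFW and PEN were nearly level as deposited, and PEN-WT was again highest. DNMT3B differed from PEN by 0.12 ± 0.04 with PEN-MUT, 0.21 ± 0.04 with PEN-WT and 0.26 ± 0.04 with PEN-FFW. Between PEN-FFW and PEN-WT, DNMT3B differed from the median gene by 0.06 (95% counting interval -0.01 to 0.13), not detectable on this scale, and DNMT3A by 0.15 (0.08 to 0.22). The log2 ratio of DNMT3A to DNMT3B reads differed by 0.09 (-0.01 to 0.19), so these genes were not told apart. As deposited, DNMT3B stood at -0.24 and DNMT3A at -0.15, so the outcome depended on the scaling.

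**Figure D1:**
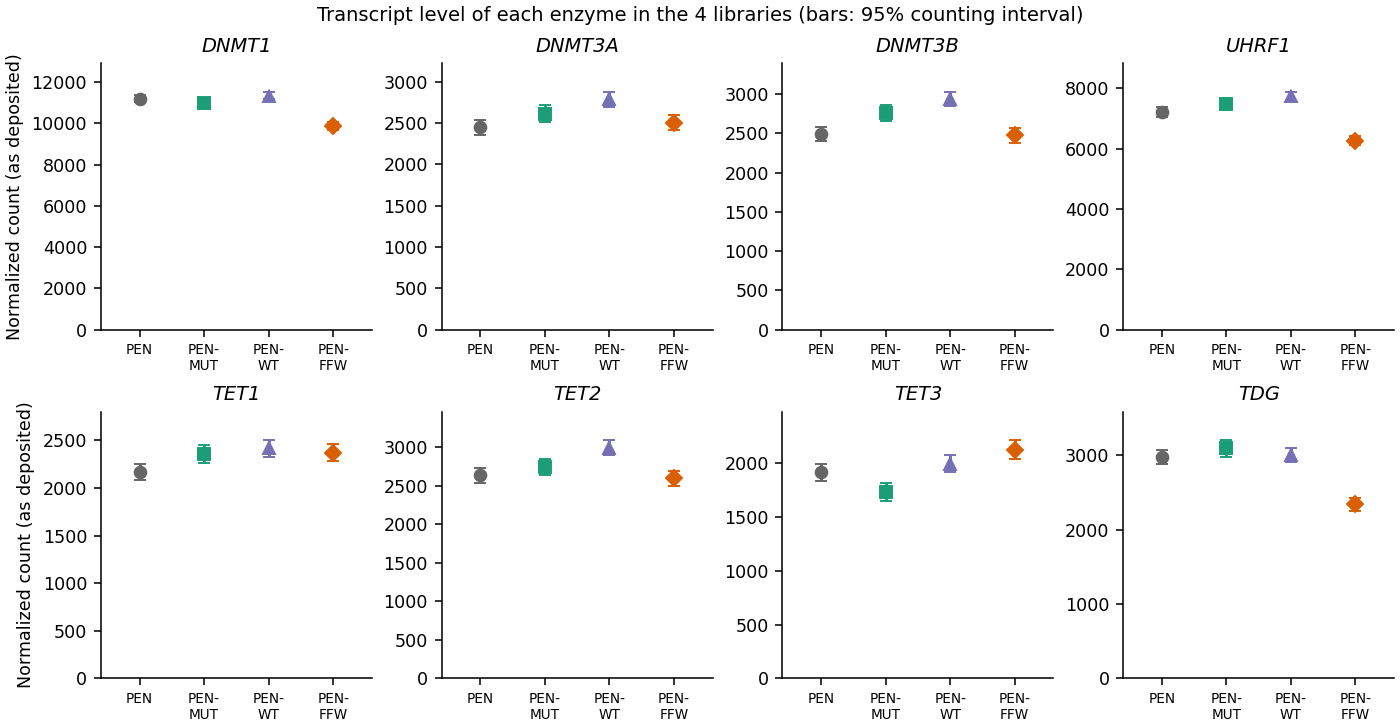
Normalized counts as deposited (vertical axes, each from 0) of the 8 enzymes, 1 point per library with its 95% counting interval. DNMT1, DNMT3B, UHRF1, TET2 and TDG are lowest in PEN-FFW, while TET3 is highest there with 2124 normalized counts against 1729 in PEN-MUT.

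Among the TET dioxygenases, TET3 and TET1 stood farthest from the median gene in PEN-FFW. TET3 (chromosome 2, 74212037 to 74335303, plus strand) had 2124 normalized counts with PEN-FFW, 1995 with PEN-WT, 1729 with PEN-MUT and 1914 with PEN alone. It was the only member whose deposited value was highest in PEN-FFW. The difference of TET3 was 0.42 ± 0.04 against PEN, 0.59 ± 0.05 against PEN-MUT and 0.39 ± 0.04 against PEN-WT. PEN-MUT itself stood at -0.17 ± 0.05 from PEN, and PEN-WT at 0.03 ± 0.04. TET1 (chromosome 10, 70320094 to 70454244, plus strand) had 2372 normalized counts with PEN-FFW, 2414 with PEN-WT, 2359 with PEN-MUT and 2166 with PEN alone. Its PEN value was the lowest and the other 3 were close together. TET1 was 0.10 ± 0.04 above PEN with PEN-MUT, 0.13 ± 0.04 with PEN-WT and 0.40 ± 0.04 with PEN-FFW. TET2 (chromosome 4, 106067032 to 106200973, plus strand) had 2596 normalized counts with PEN-FFW, 2995 with PEN-WT, 2742 with PEN-MUT and 2634 with PEN alone. PEN-WT was the highest and the other 3 lay close together. TET2 differed from PEN by 0.04 ± 0.04 with PEN-MUT, 0.15 ± 0.04 with PEN-WT and 0.25 ± 0.04 with PEN-FFW.

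TDG, which acts after the TET enzymes, was the 1 member that lay below the median gene when PEN-FFW was set against PEN. It lies on chromosome 12 (104359600 to 104382652, plus strand) and had 2338 normalized counts with PEN-FFW, 3003 with PEN-WT, 3089 with PEN-MUT and 2977 with PEN alone. The PEN-FFW library was well below the other 3 as deposited, and close to them relative to the median gene. The difference of TDG in PEN-FFW was -0.08 ± 0.04 against PEN and -0.10 ± 0.04 against PEN-MUT. That of PEN-WT against PEN was -0.02 (95% counting interval -0.08 to 0.05), not detectable at this depth. TDG has a processed pseudogene (TDGP1), as have DNMT3A (DNMT3AP1) and TET1 (TET1P1), and how the authors' counting shared reads with such copies is not given in the sources used here. The exons of TET3 also share 390 bases, and those of TDG 168, with an annotated gene on the same strand that has no symbol, so the values of both are uncertain to that extent.

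TET3 and TDG were the members farthest above and farthest below the median gene in PEN-FFW, and CpG sites, where these enzymes act, differ in number between their promoters. Their RefSeq promoter windows (GRCh38.p14, 250 bases before to 50 after an annotated start) are shown, with every CpG in capitals. The TET3 window, the first of 2 listed, is chr2:73984660-73984959 on the plus strand, and the TDG window is chr12:103965622-103965921 on the plus strand.
TET3: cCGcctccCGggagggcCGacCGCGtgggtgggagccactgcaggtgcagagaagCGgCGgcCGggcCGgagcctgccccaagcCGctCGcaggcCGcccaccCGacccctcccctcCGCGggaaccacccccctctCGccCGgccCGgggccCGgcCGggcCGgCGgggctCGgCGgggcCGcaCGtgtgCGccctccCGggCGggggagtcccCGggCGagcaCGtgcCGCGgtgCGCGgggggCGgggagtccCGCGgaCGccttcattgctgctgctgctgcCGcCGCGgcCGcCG
TDG: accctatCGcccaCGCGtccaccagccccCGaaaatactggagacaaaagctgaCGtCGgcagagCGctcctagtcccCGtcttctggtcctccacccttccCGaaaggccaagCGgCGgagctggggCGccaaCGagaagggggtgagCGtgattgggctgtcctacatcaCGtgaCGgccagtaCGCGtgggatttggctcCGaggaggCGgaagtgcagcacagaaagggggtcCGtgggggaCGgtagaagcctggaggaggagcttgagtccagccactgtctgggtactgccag
The TET3 window holds 45 CpG sites (the letters CG, which read the same on both strands) and the TDG window 22. There are 45 or more in the first listed window of 3.39% of 27305 genes, and 22 or more in 37.6%, with a median of 14. The other members' first listed windows held 36 (UHRF1), 30 (DNMT1), 26 (DNMT3A), 13 (TET2), 10 (TET1) and 3 (DNMT3B). Other listed windows of the same genes differed: the second of DNMT3A and the third of UHRF1 held 46 each, above the first of TET3, while the second window of TET2 held 35 and that of TET3 33. DNMT3B has only 1 listed window, and which start is used in SNU398 was not measured, so its 3 sites may not be those of its main promoter. These counts describe the letters only, and methylation of the promoters was not measured here.

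Against a threshold of 1.5-fold, the enzymes gave 1 call in the 6 pairs of libraries. TET3 was 1.51-fold higher in PEN-FFW than in PEN-MUT, where 7.33% of all tested genes were past 1.5-fold in either direction. None of the 8 was past 1.5-fold in PEN-FFW against PEN (7.68% of tested genes), PEN-FFW against PEN-WT (4.2%), PEN-WT against PEN (1.2%), PEN-WT against PEN-MUT (0.914%) or PEN-MUT against PEN (0.564%). The call for TET3 sat at the threshold: it ended relative to genes of like GC content (0.56), with a pseudocount of 50 (0.57), relative to genes of like transcript length (0.41), and as deposited (0.30). At 1.2-fold, DNMT3A, TET1 and TET3 were higher in PEN-FFW than in PEN, 3 of 8 where 20.8% of tested genes were. TET1 and TET3 were higher by that much against PEN-MUT (19.8% of tested genes) and against PEN-WT (14.2%), and relative to the median gene no member was lower by that much in any pair. These smaller differences also depended on the scaling, with the 1.2-fold threshold at 0.263. Relative to genes of like length, TET1 was at 0.25 against PEN, 0.12 against PEN-MUT and 0.14 against PEN-WT, all short of it. DNMT3A at 0.23 against PEN and TET3 at 0.256 against PEN-WT fell short too. TET3 stayed past it in that setting against PEN (0.271) and PEN-MUT (0.41). Relative to genes of like GC content and length, TET1 stayed past it against PEN (0.39) and PEN-MUT (0.270) but not PEN-WT (0.245). TET3 then stayed past it against PEN-MUT (0.36) but not PEN (0.21) or PEN-WT (0.262), nor DNMT3A against PEN (0.09). As deposited, TET3 against PEN-MUT (0.30) was the 1 member difference of PEN-FFW past 1.2-fold upwards, while TDG was past it downwards at -0.35 against PEN, -0.40 against PEN-MUT and -0.36 against PEN-WT, and UHRF1 at -0.30 against PEN-WT.

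The median of the 8 members was 0.26 in PEN-FFW against PEN, 0.18 against PEN-MUT and 0.10 against PEN-WT, where the median tested gene is 0. The middle 90% of tested genes spanned -0.33 to 0.70 in PEN-FFW against PEN, and all 8 members fell within it. In PEN-WT the member median was 0.10 against PEN and 0.07 against PEN-MUT, and in PEN-MUT it was 0.03 against PEN. The sign of the PEN-FFW values depended on the scaling. As deposited the member median was -0.015 against PEN, with 3 members higher and 5 lower, and -0.12 against PEN-MUT, with 2 higher and 6 lower. The 3 comparisons with PEN share the PEN library, and the comparisons with PEN-MUT share that library.

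**Figure D2:**
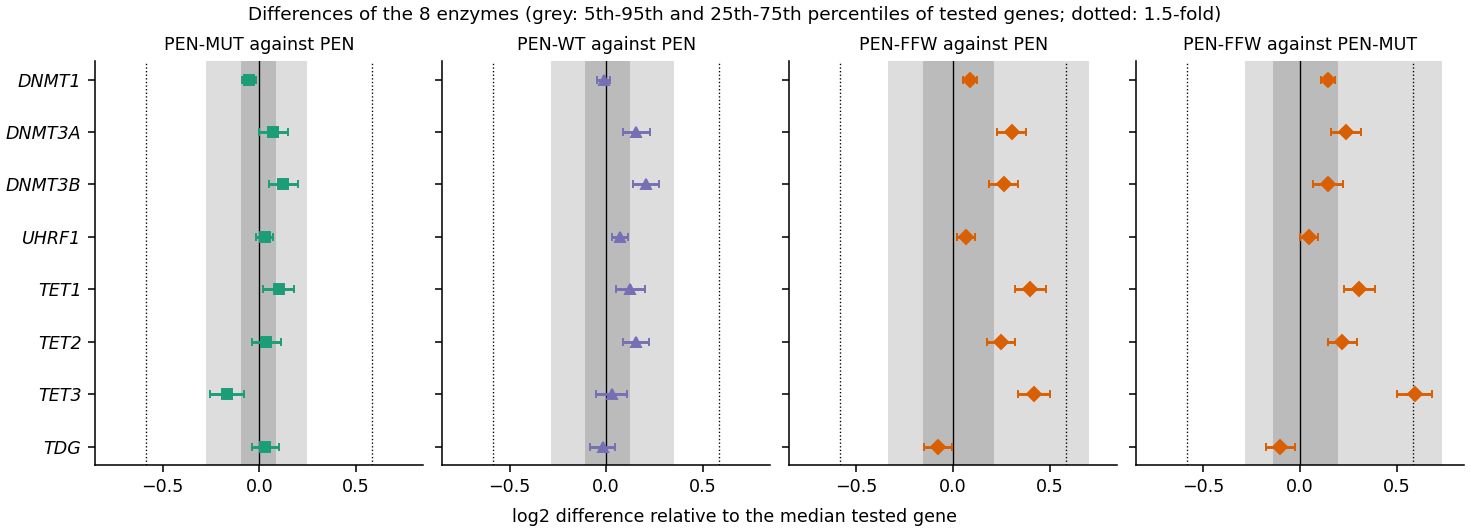
Differences of the 8 enzymes in log2 units from the median tested gene (horizontal axes), with 95% counting intervals, for each of the other peptides against PEN and for PEN-FFW against PEN-MUT. Light and dark grey mark the 5th to 95th and the 25th to 75th percentiles of tested genes, dotted lines mark 1.5-fold, and only TET3 in the last panel, at 0.59, reaches a dotted line.

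Ratios of reads within a library do not depend on how libraries are scaled, although transcript length and GC content, which differ between the members, still enter them. TET1, TET2 and TET3 together made up 32.3% of the reads of TET and DNMT genes with PEN-FFW (95% Wilson interval 31.7% to 32.9%), 30.2% with PEN-WT (29.7% to 30.7%), 29.5% with PEN-MUT (28.9% to 30.1%) and 29.4% with PEN alone (28.8% to 29.9%). The TET share was thus highest in PEN-FFW, beyond counting error. TET3 took 30.0% of TET reads with PEN-FFW, 26.9% with PEN-WT, 25.3% with PEN-MUT and 28.5% with PEN alone. TET2 took 36.6%, 40.4%, 40.1% and 39.2% of TET reads in the same order, so TET2 was lowest where TET3 was highest. The TET3 interval with PEN-FFW (28.9% to 31.0%) overlapped that with PEN alone (27.5% to 29.5%) and lay above the other two. TDG reads were 24.8% of TDG and TET reads with PEN-FFW (24.0% to 25.6%), 28.9% with PEN-WT, 31.1% with PEN-MUT and 30.7% with PEN alone. PEN-FFW was below the other 3 libraries, and PEN-WT below PEN and PEN-MUT, again beyond counting error.

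Within the DNA methyltransferases, DNMT1 made up 66.5% of DNMT reads with PEN-FFW, 66.5% with PEN-WT, 67.1% with PEN-MUT and 69.4% with PEN alone. PEN stood apart from the other 3, which overlapped in their intervals. DNMT3B held 49.7% to 51.3% of DNMT3A and DNMT3B reads, with overlapping intervals in all 4 libraries. UHRF1 held 38.9% of UHRF1 and DNMT1 reads with PEN-FFW (38.2% to 39.6%) and 39.2% with PEN alone (38.5% to 39.8%). It held 40.5% with both PEN-WT (39.9% to 41.1%) and PEN-MUT (39.8% to 41.2%). The PEN-FFW interval overlapped that with PEN alone and lay below those with PEN-WT and PEN-MUT. These intervals cover counting error only, since sequenced fragments are not independent molecules, and the spread between cultures is unknown.

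**Figure D3:**
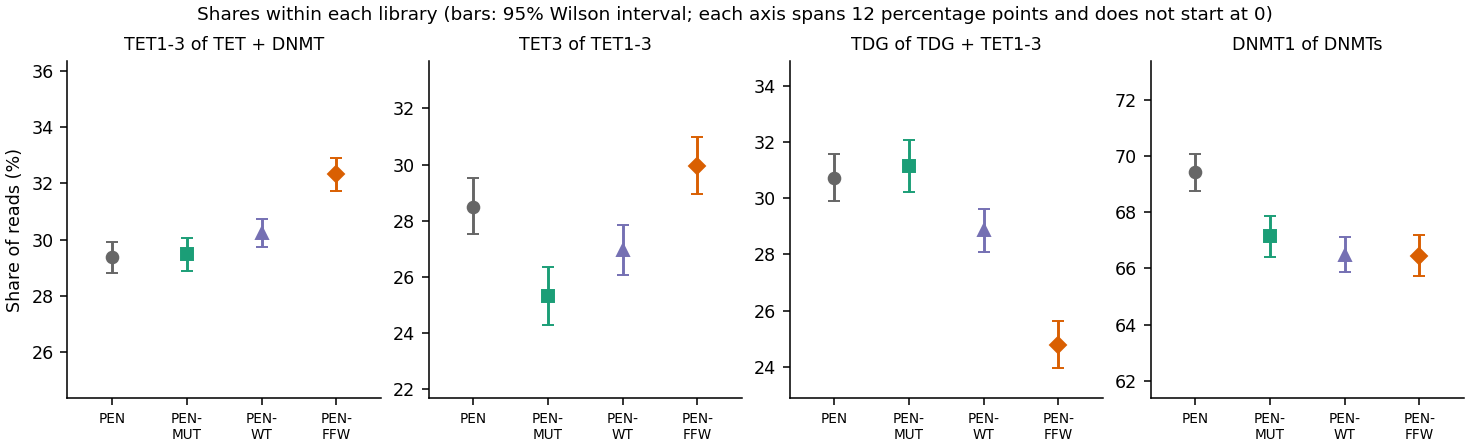
Shares of reads (%, vertical axes that each span 12 percentage points and do not start at 0) within each library, with 95% Wilson intervals: TET genes among TET and DNMT genes, TET3 among TET genes, TDG among TDG and TET genes, and DNMT1 among DNMT genes. In PEN-FFW the TET share is highest (32.3%) and the TDG share lowest (24.8%), while the DNMT1 share is highest in PEN (69.4%).

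Of the 28 pairs of members, TET3 and TDG differed most in their ratio between PEN-FFW and each other library. The log2 ratio of TET3 to TDG reads was higher in PEN-FFW by 0.50 ± 0.06 than in PEN, by 0.70 ± 0.06 than in PEN-MUT and by 0.45 ± 0.06 than in PEN-WT. In PEN-WT against PEN-MUT it was also the pair that differed most (0.25 ± 0.06). The pair was picked after its values were seen.

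Differences in PEN-FFW went with transcript length and GC content across genes, and the members differ widely in both. The median difference from PEN went from -0.11 among the shortest transcripts (median 688.5 bases) to 0.15 among the longest (median 11519.5 bases), and from -0.08 in the bin lowest in GC (median 35.7%) to 0.25 in the highest (66.2%). TET3 (12060 bases), TET1 (9612), TET2 (9589) and DNMT3A (9421) have long transcripts, and TDG (3183) the shortest of the 8. TDG is also the member lowest in GC content (39.0%), with TET2 (41.2%) and TET1 (42.1%) next, while the other five lie between 53.2% and 55.7%. Relative to genes of like length, PEN-FFW against PEN stood at 0.27 for TET3, 0.25 for TET1, 0.17 for TET2, 0.23 for DNMT3A, 0.27 for DNMT3B and -0.09 for TDG. Relative to genes of like GC content, TET1 (0.47) and TET2 (0.34) stood higher than before, TET3 (0.40) and DNMT3A (0.25) slightly lower and TDG at 0.01. Relative to genes alike in both length and GC content, TET1 was at 0.39, TET2 at 0.24, DNMT3B at 0.23, TET3 at 0.21, DNMT3A at 0.09, TDG at 0.04, UHRF1 at -0.04 and DNMT1 at -0.14. The member median was then 0.15 against PEN and 0.065 against PEN-MUT. TET1, TET2, TET3, DNMT3A and DNMT3B were above like genes against PEN in each of these settings, whereas DNMT1, UHRF1 and TDG each had both signs among them. Relative to genes of like abundance, the abundant DNMT1 stood at 0.25 and UHRF1 at 0.17 against PEN. The settings by length were chosen after seeing the data.

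**Figure D4:**
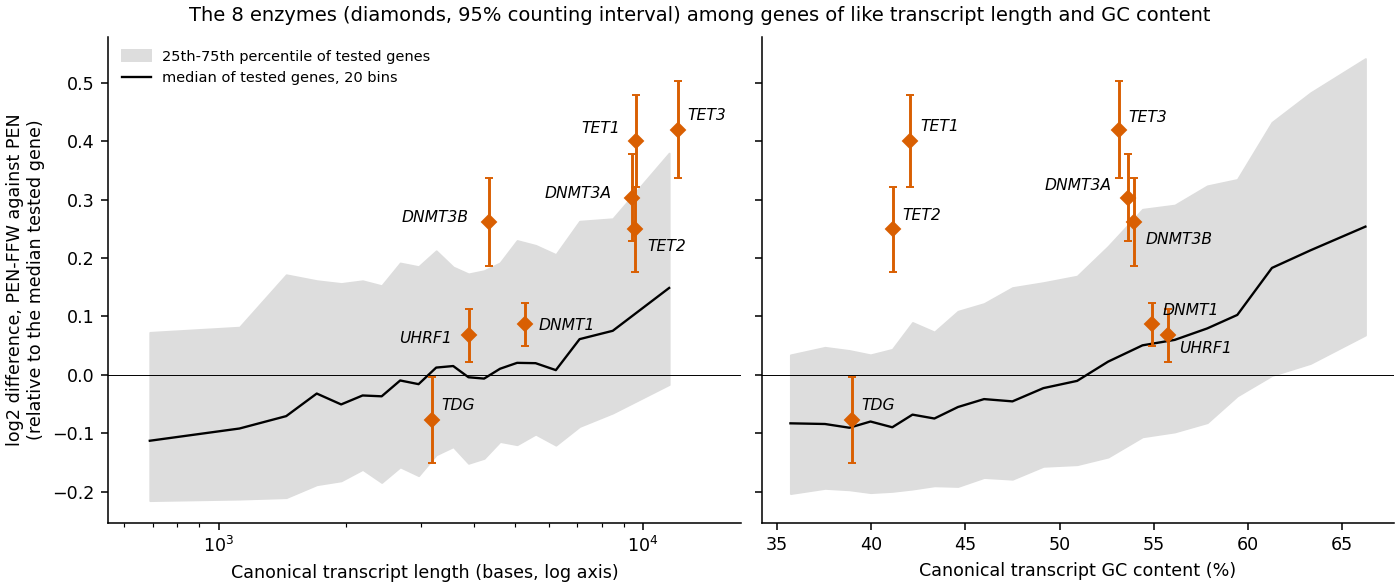
Difference of PEN-FFW from PEN in log2 units from the median tested gene (vertical axis) against canonical transcript length (left, log axis, bases) and GC content (right, %), with the 8 enzymes as diamonds with 95% counting intervals. The black line is the median and the grey band the 25th to 75th percentile of tested genes in 20 bins. TET1 (0.40) lies above the band in both panels. DNMT3A (0.30) lies above it on the right and at its upper edge on the left. TET3 (0.42) lies above it on the right and past its end on the left.

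TET3 and TET1 had the widest spans of the 8 over the 4 libraries, 0.59 and 0.40 in log2 units relative to the median gene. Spans as wide occurred in 10.0% and 21.2% of tested genes. Among 8761 genes whose normalized counts averaged at least 500, the patterns nearest to TET3 over the 4 libraries, by Euclidean distance of centred log2 values, were those of TRRAP (0.04), SMG1 (0.05), GMIP (0.05), FBXO41 (0.05) and CECR2 (0.05). TRRAP codes for a scaffold of histone acetyltransferase complexes and SMG1 for a kinase of nonsense-mediated decay. Nearest to TET1 were ARFRP1 (0.01), LRP4 (0.02), RECQL5 (0.02), BACE1 (0.02) and CC2D1B (0.02). With 4 libraries such likeness is common, and 64 genes lay within 0.1 of TET3 and 174 within 0.1 of TET1.

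Genes that act around these enzymes mostly stayed near the median gene too. Of 8 readers of methylated CpG (all tested), 0 were past 1.5-fold in any pair, and the median was 0.11 in PEN-FFW against PEN, 0.08 with PEN-WT and 0.08 with PEN-MUT. ZBTB4, a zinc finger reader, stood at 0.53 ± 0.08 in PEN-FFW against PEN and 0.47 in PEN-WT. ZBTB33, also called Kaiso, stood at -0.32 ± 0.06 in PEN-FFW, -0.26 with PEN-WT and -0.23 with PEN-MUT.

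Of 14 base excision repair genes, 1 was past 1.5-fold when PEN-FFW was set against PEN (7.68% of tested genes). The list had a median of -0.015, and the gene past the threshold is given next. This was NEIL1, a glycosylase that can act beside TDG, with 186 normalized counts with PEN-FFW, 127 with PEN-WT, 104 with PEN-MUT and 99.1 with PEN alone. Its difference of 1.11 ± 0.15 from PEN rests on the low counts just given, and it was past 1.5-fold against PEN-MUT and PEN-WT too. Below the median gene, NEIL2 stood at -0.34 ± 0.06, the uracil glycosylase UNG at -0.25 ± 0.04 and the endonuclease APEX1, which cuts the site that TDG leaves, at -0.24 ± 0.02.

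Of 20 partners and regulators, 15 passed the filter and 0 were past 1.5-fold in any pair (0.564% to 7.68% of tested genes). Their median was 0.02 in PEN-FFW against PEN. QSER1, which guards CpG-rich regions from methylation, stood at 0.26 ± 0.03, the histone methyltransferase EHMT2 at 0.22 ± 0.03, GADD45A at 0.20 ± 0.14 and USP7, a deubiquitinase that binds DNMT1 and UHRF1, at -0.17 ± 0.02. DNMT3L, the cofactor of de novo methylation in germ cells, had at most 5.43 normalized counts, and CXXC4, GADD45G, ZFP57 and DPPA3 were at the floor of 5 in all 4 libraries.

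Of 21 genes that supply the methyl donor S-adenosylmethionine and 2-oxoglutarate, 20 passed the filter. Past 1.5-fold were 0 of them in any pair (0.564% to 7.68% of tested genes). The median was -0.12 in PEN-FFW against PEN, -0.03 with PEN-WT and 0.05 with PEN-MUT. D2HGDH, which turns D-2-hydroxyglutarate into 2-oxoglutarate, stood at 0.37 ± 0.06 in PEN-FFW. The mitochondrial enzymes IDH3A (-0.34 ± 0.05) and SDHB (-0.30 ± 0.03) were on the low side. MAT2A, the main synthase of the methyl donor outside the normal liver and named here after its values were seen, stood at -0.22 with PEN-FFW and at -0.32 with both PEN-WT and PEN-MUT.

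DNMT1 and UHRF1 are known to follow the cell cycle, and genes of the cycle are therefore set beside them. Of 20 S phase genes, 17 lay below the median gene when PEN-FFW was set against PEN (list median -0.14). By construction, 50% of all tested genes lie on either side of it. In the same comparison DNMT1 stood at 0.09 and UHRF1 at 0.07. Relative to genes of like GC content and length, DNMT1 (-0.14) and UHRF1 (-0.04) were below 0. The S phase genes were not set against like genes, so how DNMT1 and UHRF1 stand to them in that setting is not known. RRM2, the ribonucleotide reductase subunit, was at -0.43 ± 0.02, the cyclin gene CCNE2 at -0.34 ± 0.04, the helicase gene MCM7 at -0.24 ± 0.02 and CDC6 at -0.23 ± 0.03. In PEN-WT the S phase median was -0.08, with 15 genes below the median gene, and in PEN-MUT 0.06, with 7 below. Of 15 genes of G2 and mitosis, 12 lay on the low side with PEN-FFW, and their median was -0.06. No gene of either list was past 1.5-fold in any pair (0.564% to 7.68% of tested genes). The part of the cell cycle in the values of DNMT1 and UHRF1 was not tested.

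**Figure D5:**
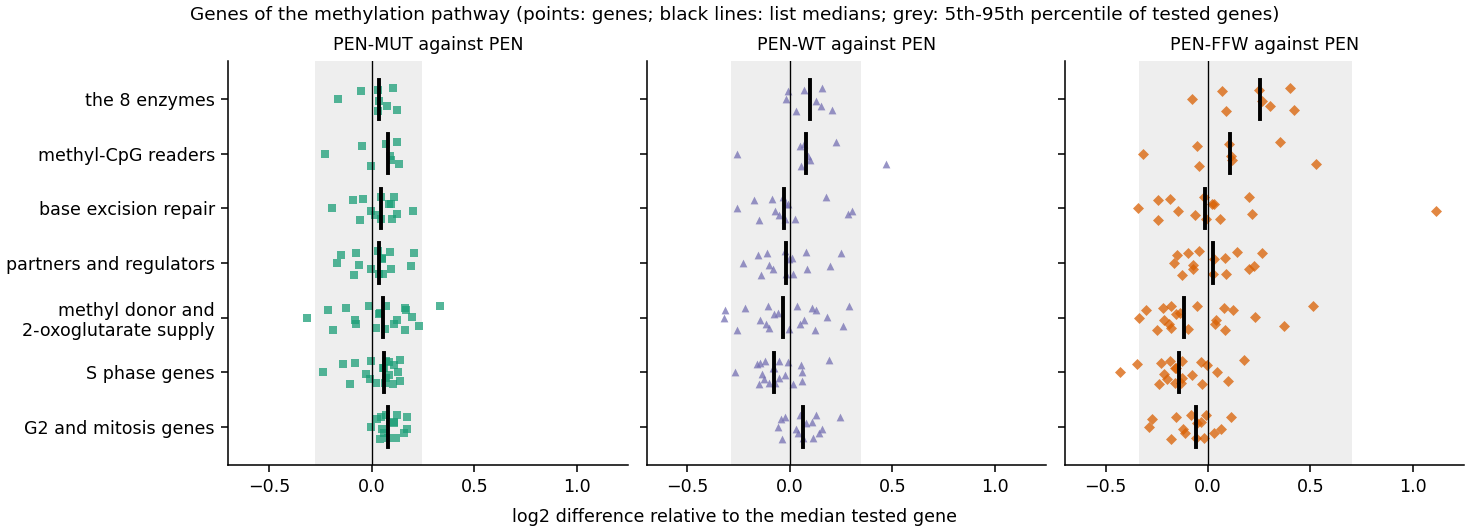
Differences from PEN in log2 units from the median tested gene (horizontal axes) for the 8 enzymes and 6 lists of related genes (rows), 1 point per gene, with black lines at list medians and grey from the 5th to the 95th percentile of tested genes. In PEN-FFW the 8 enzymes have a median of 0.26 and S phase genes -0.14, and NEIL1 at 1.11 is the point farthest right.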

How the data were processed

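RNA of SNU398 cells was sequenced in 4 libraries, 1 per peptide, and the other 3 samples of the series (chromatin immunoprecipitation and input) are not analysed here. The deposited table holds log2 values made by the authors, and 0 of its columns could not be matched to a library. The submitters' processing notes name the build hg19 and, as tools, featureCounts 1.5.0-p1 and STAR 2.4.0i. The sources used here do not give the strand setting, the annotation or the method of normalization. Raised to the power of 2, 100% of the deposited values above the floor of 5 were whole multiples of 1 factor per library (within 0.1 read), which was 0.923 with PEN-FFW, 0.776 with PEN-WT, 1 with PEN-MUT and 0.840 with PEN alone. Reads were recovered by dividing by it, and the values after undoing the log2 are called normalized counts.

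Genes averaging at least 50 normalized counts were kept, which left 12578 (53.0%). Differences in log2(normalized count + 10), which understate the fold of low genes, were centred on the median gene of each pair. Counting errors followed the Poisson law, and 95% intervals are 1.96 standard errors. A fixed fold replaced a test. The recovery of the library factors and the centring were tested on simulated data, and the counting errors were not. Named were all 8 members, at most 4 genes of each list (by distance from the median gene, PEN-FFW set against PEN), the 5 nearest patterns of the 2 members of widest span, SALL4 and RBBP4. Some genes that this rule names are not reported here. Members and lists were chosen with earlier results of these data known. Positions, lengths and GC content came from GENCODE 44 lifted to GRCh37, the build that hg19 names, where 20574 genes were found under their symbol, 1572 under an older one listed by RefSeq and 1564 not at all. Scripts used Python 3.11.15, pandas 2.3.3, NumPy 2.4.6, SciPy 1.17.1 and Matplotlib 3.10.9. Alternatives were other scalings, pseudocounts, filters and folds.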

Additional observations from a re-analysis of the deposited data

How the results depend on the processing

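The count of members past 1.5-fold was 0 under all scalings, pseudocounts and filters tried for the 5 pairs other than PEN-FFW against PEN-MUT. For that pair the count of 1 (TET3) became 0 as deposited, without a filter, with a pseudocount of 50, at 2-fold, and relative to genes of like GC content, of like length, or of like GC content and length. It was 2 at 1.2-fold, where PEN-FFW gave 3 against PEN and 2 against PEN-WT. The member median of PEN-FFW against PEN (0.26) moved to -0.015 as deposited and without a filter, and to 0.15 with GC content and length. Against PEN-MUT (0.18) it moved to -0.12 in the first 2 settings, to 0.065 with GC content and length and to 0.28 relative to genes of like abundance. Against PEN-WT (0.10) it moved to -0.20 as deposited and -0.16 without a filter. Without a filter, genes at the floor in both libraries, which differ by 0, enter the median gene. That setting therefore repeated the deposited values against PEN and PEN-MUT and is not a separate check on the filter. With a filter of 200 the member median of PEN-FFW against PEN was 0.28. Leaving out TDG moved no median beyond counting error. Of 48 member differences, 48 stayed within counting error after median-ratio scaling, with either pseudocount and with a filter of 200, and 44 after scaling by total reads. The number was 40 relative to genes of like GC content or of like abundance, 38 for like length, 28 for GC content and length, and 24 as deposited and without a filter. The sign was kept by 34 with GC content and length, 33 without a filter and 32 as deposited. With 1 library per peptide no replicate could be left out. No paired analysis was possible because each peptide has 1 library. Depth limits single differences to a counting error of about 0.04 for the 6 less abundant members, and the spread between cultures is unknown.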

Other observations

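Genes of the germline that promoter methylation usually keeps silent were near the floor in all 4 libraries. Of 18 such genes, 15 were at the floor of 5 in every library, among them MAGEA1, MAGEA3, DAZL, DDX4 and TEX101. None of the 18 passed the filter. In the whole table of 23710 genes, 7939 (PEN-FFW) to 8480 (PEN-MUT) were at the floor in a single library, and 53.0% passed the filter. MAGEC2 had 22.2 normalized counts with PEN-FFW, 35.7 with PEN-WT, 35 with PEN-MUT and 44.5 with PEN alone. SYCP3, a protein of the meiotic chromosome axis, had 31.4, 12.4, 18 and 14.3 in the same order, so PEN-FFW was the lowest library for MAGEC2 and the highest for SYCP3. MAGEC1 had at most 7.39 normalized counts. Whether the genes at the floor differed between libraries cannot be read from these values.

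The fibroblast gene COL1A1, outside the methylation pathway, had 221 normalized counts with PEN-FFW, 182 with PEN-WT, 156 with PEN-MUT and 127 with PEN alone. COL1A1 with PEN-FFW stood 1.02 ± 0.14 above PEN and the far more abundant COL3A1 0.20 ± 0.007 above it. LUM stood at -0.26 ± 0.02 and DCN at -0.18 ± 0.05.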
